A study of Homo sapiens with 4 samples.

Results

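ADGRL4, TM4SF1, ENG and CLDN5 are 4 genes with a place in the biology of blood vessels, and they were followed here through translating ribosome affinity purification with sequencing (TRAP-seq) of human cerebellar progenitors made in culture. They were taken by name. They are 4 of 1708 genes whose transcripts could be tied to a symbol, among 65889 genes and unassigned transcripts listed in the deposited quantifications. The cells were of the RUES2 human embryonic stem cell line, and all carried the ATOH1-EGFP-L10a transgene, in which a human ATOH1 enhancer drives a ribosomal protein fused to green fluorescent protein. The transgene was delivered by lentivirus, and clonal lines were then selected. The cells were differentiated to day in vitro (DIV) 28 with inhibitors of SMAD signalling, CHIR99021, FGF2, BMP7 and BDNF. Puromycin was in the medium until DIV 28, as the paper states for its transgenic lines. The immunoprecipitate (IP), the messenger RNA (mRNA) pulled down with tagged ribosomes, was sequenced as 3 libraries from 3 independent differentiation experiments. It was set against 1 input library, which holds mRNA of the whole culture or of its unbound fraction. The groups compared are therefore IP and input, of the same transgenic line, age and treatment. All 3 IP files share 1 file tag and the input file carries another, so tag and group cannot be told apart. Whether the input came from the same differentiation experiments as the IPs was not determined.

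Endothelial cells line blood vessels, and their precursors arise from mesoderm. ADGRL4 (also ELTD1) codes for an adhesion G protein-coupled receptor of vessels that takes part in angiogenesis. TM4SF1 codes for a membrane protein with 4 transmembrane segments, abundant in endothelium and also made by mesenchymal and tumour cells. ENG codes for endoglin, a co-receptor for ligands of the TGF-beta family that endothelial cells share with stromal and haematopoietic cells. CLDN5 codes for claudin 5, the main claudin of tight junctions at the blood-brain barrier. ATOH1, in contrast, is the proneural transcription factor of the rhombic lip, from which cerebellar granule cells derive. A pull-down through an ATOH1-driven tag addresses whether such vessel-associated mRNAs lie in the tagged lineage or in the rest of the culture.

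The 4 libraries held between 34603230 and 41173019 estimated reads, and values are given as estimated reads or as TPM, a level scaled for transcript length and depth. Scaled counts are counts per unit of effective library size (CPM, with TMM scaling). Pairwise correlation of log2 CPM over 12705 well-covered genes and transcripts, which are not independent replicates, was 0.932 to 0.944 between IPs and 0.712 to 0.719 between IPs and input. The labels and the file tags disagree on which library is the input. The library taken as input carries a tag that stands in the input sample's title, although its file is deposited under a sample labelled IP. With that library as input, 219 of 243 genes that could be tied to the study's table by mean count alone matched the table's fold change within 0.01 on the log2 scale. With IP replicate 1, 2 or 3 in its place, 0 of 243 matched. The library scales behind these ties were fitted on other rows of that table with the same library as input. They were not fitted anew for the replicates, so the 0 is not a separate test. ATOH1 was at 37.8, 50.6 and 44.1 TPM in the IPs, against 0.304 TPM (7 reads) in the library taken as input. How much of the tagged lineage that library holds was not determined. IP replicates are numbered by file tag, and which of the labelled IP samples each one is was not settled.

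Of the 4 genes, ADGRL4 and TM4SF1 fell strongly in the IPs, CLDN5 rose, and ENG was lower in each IP without passing the test. By the quasi-likelihood test of edgeR, with p-values adjusted after Benjamini and Hochberg, 2 of the 4 were called lower, against 1.50% of all 43624 genes and transcripts tested. Among the 1708 genes tied to a symbol, 28.1% were called lower. Called higher was 1 of the 4, against 2.33% of all genes and transcripts and 28.7% of the tied genes. The symbols came from the part of the study's table that could be read here, and all of its genes had passed the study's own test. Each tie also required the study's fold change with the library taken as input. These shares therefore say nothing particular about the 4 genes. All p-values rest on the spread among 3 IPs, with the single input assumed to vary likewise, and an exact permutation test of 3 libraries against 1 cannot give a p below 0.25. Every gene on the lists below had all 3 IPs on 1 side of the input, with NOTCH3, SMAD2 and LMX1A among those not called. Lying lower or higher in 3 of 3 IPs therefore does not set the 4 apart. The share of all genes and transcripts that do so was not counted.

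**Figure D1:**
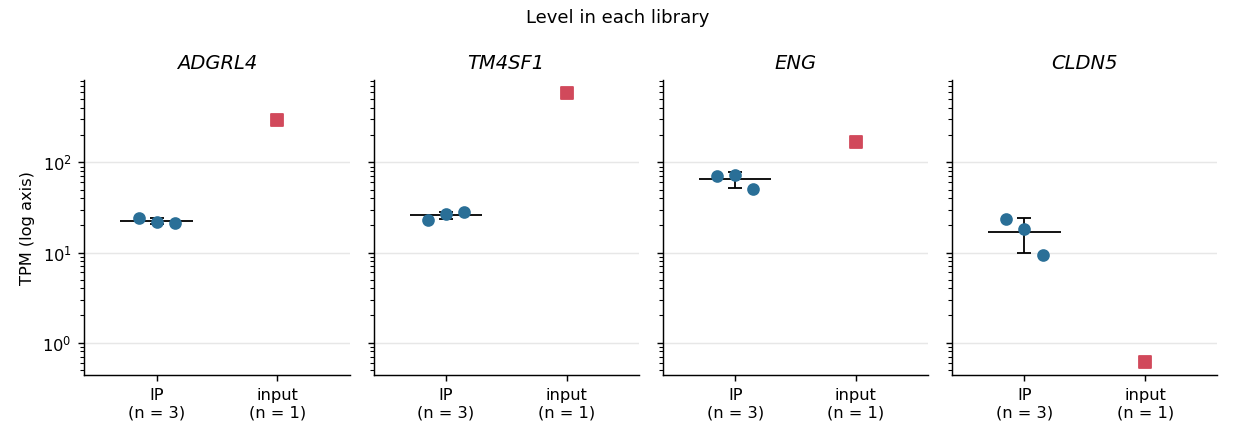
Level of each gene in TPM on a log axis, with 1 point per IP library and a square for the single input library. The horizontal line and bars give the IP mean and SD (n = 3). ADGRL4, TM4SF1 and ENG lie below the input in each IP, and CLDN5 lies above it in each IP.

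ADGRL4 lies on the minus strand of chromosome 1 (GRCh37, chr1:79355449-79747809) and was quantified as 1 transcript of 3619 bases, uc001diq.4. It had 24.1, 21.8 and 21.3 TPM in IP replicates 1, 2 and 3, against 294 TPM in the input. In estimated reads these were 2470, 2366 and 2452 in the IPs, against 27973 in the input. The 3 IPs were nearly level, with a coefficient of variation of 6.77%, and the input was 12.2 times the highest IP. The log2 fold change of scaled counts was -3.38 (standard error 0.10, edgeR adjusted p = 0.0167), lower in 3 of 3 IPs. The mean ratio of IP to input was 0.0763 ± 0.0052 in TPM (SD, n = 3) and 0.0961 in scaled counts. The 3 ratios share 1 input value.

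TM4SF1 lies on the minus strand of chromosome 3 (GRCh37, chr3:149086809-149095479). Transcript uc003exb.1, of 1691 bases, held all of its reads in the IPs and 99.9% of its TPM in the input. The gene had 23.2, 26.6 and 27.9 TPM in IP replicates 1, 2 and 3, against 587 TPM in the input. In estimated reads these were 1015, 1237 and 1372 in the IPs, against 23966 in the input. The groups lay far apart, the input at 21.1 times the highest IP, while the highest IP was 1.20 times the lowest. The log2 fold change of TM4SF1 was -4.17 (standard error 0.17, edgeR adjusted p = 0.0167), lower in 3 of 3 IPs, the 13th lowest of the 1708 tied genes. ADGRL4 was the 34th lowest. In the input TM4SF1 ranked above 99.4% of the genes and transcripts with any signal, and in the IPs above 88.9% to 90.6%.

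The RefSeq promoter table used (GRCh38.p14) had a match for 3 of the 4 genes, ADGRL4, TM4SF1 and ENG, and none for CLDN5. The 300 bases around these start sites are shown, 250 before and 50 after the start. Capitals mark GGAA or its reverse complement TTCC, the core letters of sites for ETS factors, a family with known roles in endothelial genes. All 3 genes are on the minus strand, at chr1:79006681-79006980, chr3:149377600-149377899 and chr9:127854609-127854908, and each is written in the direction of transcription.
ADGRL4: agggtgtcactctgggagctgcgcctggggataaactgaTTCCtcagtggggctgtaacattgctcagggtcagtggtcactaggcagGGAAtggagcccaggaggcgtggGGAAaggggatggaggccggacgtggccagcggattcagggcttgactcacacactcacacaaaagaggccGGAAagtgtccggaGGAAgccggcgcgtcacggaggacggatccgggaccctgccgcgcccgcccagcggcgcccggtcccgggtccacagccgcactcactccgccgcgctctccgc
TM4SF1: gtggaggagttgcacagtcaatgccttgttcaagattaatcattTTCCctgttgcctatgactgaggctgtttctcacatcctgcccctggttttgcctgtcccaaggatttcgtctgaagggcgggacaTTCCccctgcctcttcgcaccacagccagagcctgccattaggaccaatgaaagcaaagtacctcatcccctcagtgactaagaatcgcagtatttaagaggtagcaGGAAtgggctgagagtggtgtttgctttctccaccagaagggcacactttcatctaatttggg
ENG: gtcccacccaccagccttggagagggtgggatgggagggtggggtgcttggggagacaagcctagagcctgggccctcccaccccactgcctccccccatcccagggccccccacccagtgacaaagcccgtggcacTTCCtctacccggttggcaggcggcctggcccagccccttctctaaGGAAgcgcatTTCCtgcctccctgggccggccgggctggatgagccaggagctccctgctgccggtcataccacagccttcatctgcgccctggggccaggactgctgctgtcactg
The GGAA letters occurred 5 times in ADGRL4, 3 times in TM4SF1 and 3 times in ENG, on either strand. These 4 letters are common, with a match in 95.5% of 35116 RefSeq promoters of this length and 3.51 matches per promoter on average. The E-box CAGATG, of the type bound by ATOH1 and related factors, matched 1 time in ENG and was not found in the windows of ADGRL4 and TM4SF1, against 14.7% of all promoters. The E-box CAGCTG (17.9% of promoters) and the TATA box TATAAA (11.5%) had no match in the 3 windows. The GC box GGGCGG (45% of promoters) matched 1 time each in ADGRL4 and TM4SF1. No matches of different motifs overlapped. GC content was 66.7% in ADGRL4, 50% in TM4SF1 and 68.3% in ENG, against a median of 58.7%.

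ENG lies on the minus strand of chromosome 9 (GRCh37, chr9:130577292-130616937). It had 71.2, 73.3 and 50.3 TPM in IP replicates 1, 2 and 3, against 167 TPM in the input. In estimated reads these were 5780, 6314 and 4602 in the IPs, against 12857 in the input. Each IP lay below the single input, but the IPs spread more than for the 2 genes above, with a coefficient of variation of 19.6%. The log2 fold change of ENG was -1.06 (standard error 0.20, edgeR adjusted p = 0.0765), lower in 3 of 3 IPs, which does not pass the threshold of 0.05. ENG was the most abundant of the 4 in each IP, at 46.2% to 52.5% of their summed TPM, against 15.9% in the input.

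The transcripts of ENG did not stand in the same proportion in IPs and input. Transcript uc004bsj.5, of 3065 bases, had 31.9, 32.2 and 23.8 TPM in IP replicates 1, 2 and 3, against 104 TPM in the input. Transcript uc011mam.3, of 2805 bases, had 38.3, 40.6 and 25.9 TPM in IP replicates 1, 2 and 3, against 61.6 TPM in the input. The shorter transcript thus held 53.8%, 55.4% and 51.6% of ENG TPM in the IPs, against 36.8% in the single input. With each transcript tested on its own, uc004bsj.5 fell (log2 fold change -1.50, standard error 0.18, edgeR adjusted p = 0.0426). The shorter uc011mam.3 had -0.49 (standard error 0.25, edgeR adjusted p = 0.411). The difference in share itself was not tested. The library kit does not mark strand, and a long non-coding RNA gene, ENSG00000225032, overlaps ENG on the opposite strand (chr9:130578345-130584799). Reads from the 2 genes in the overlap cannot be told apart. Which transcript codes for the long or the short endoglin was not determined.

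**Figure D2:**
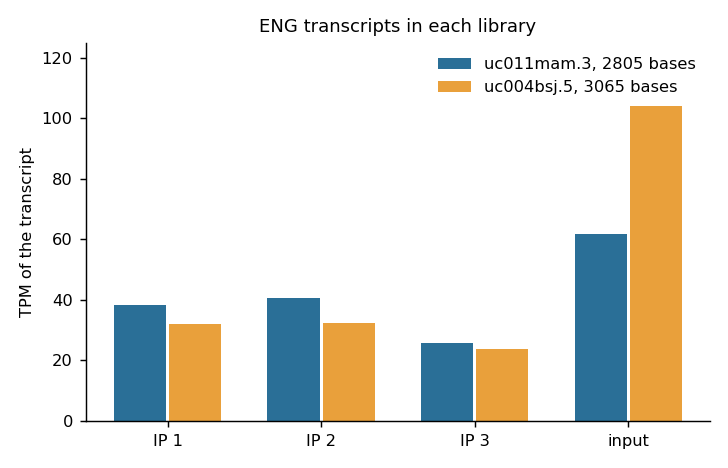
TPM of the 2 ENG transcripts with at least 5% of the gene's TPM, in each IP library and in the input, with bars from 0. The 3065-base transcript is the lower of the pair in each IP (23.8 to 32.2 TPM) and the higher in the input (104 TPM).

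CLDN5 lies on the minus strand of chromosome 22 (GRCh37, chr22:19510547-19515068), and transcript uc002zpu.2, of 1702 bases, held at least 99.7% of its TPM in each library. It was the only one of the 4 that was higher in the IPs. It had 23.7, 18.0 and 9.42 TPM in IP replicates 1, 2 and 3, against 0.609 TPM in the input. In estimated reads these were 1044, 844 and 467 in the IPs, against 25 in the input. The IPs spread over 2.51-fold, the widest range of the 4 genes, yet the lowest IP was still 15.5 times the input. The log2 fold change of CLDN5 was 5.12 (standard error 0.75, edgeR adjusted p = 0.0494), higher in 3 of 3 IPs. The ratio of scaled counts was 34.9, and the 95% Poisson interval of the 25 input reads, which covers counting error only, puts it between 23.6 and 53.9. The call is at the edge of the threshold, with an adjusted p of 0.0505 under median-ratio (RLE) scaling and 0.0519 without the filter on low counts. CLDN5 ranked above 80.6% to 89.1% of the genes and transcripts with any signal in the IPs, against 35.7% in the input.

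The order of the 4 genes by TPM therefore differed between IP and input. In the IPs ENG stood first, and ADGRL4, TM4SF1 and CLDN5 lay close together in replicate 1 (23.2 to 24.1 TPM). In replicates 2 and 3 the order below ENG was TM4SF1, ADGRL4 and CLDN5. The IP means of TM4SF1 (25.9 ± 2.42 TPM) and ADGRL4 (22.4 ± 1.52 TPM) (SD, n = 3 each) did not separate, since their IP values overlapped, and that of CLDN5 was 17.0 ± 7.18 TPM (SD, n = 3). In the input the order was TM4SF1, ADGRL4, ENG and CLDN5. Together the 4 genes summed to 109 to 142 TPM in the IPs, against 1049 TPM in the input.

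These calls depend on the number of IP libraries and on which library is the input. Without IP replicate 1, 2 or 3, edgeR called 0 genes and transcripts in all, and the adjusted p of the 4 genes lay between 0.106 and 0.216, with each direction kept. With limma-voom, no gene was called, and ADGRL4 and TM4SF1 had an adjusted p of 0.0542. With the input as the labels place it, all 4 directions turned, to log2 fold changes of 1.99 for ADGRL4, 2.96 for TM4SF1, 0.34 for ENG and -1.28 for CLDN5, each with an edgeR adjusted p of 1. That fold change was -0.17 for ATOH1. The labels count the library taken as input here as an IP, and that exchange can turn a direction by itself. These genes had also been tied by fold changes with that library as input, so the turn does not test the labels.

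**Figure D3:**
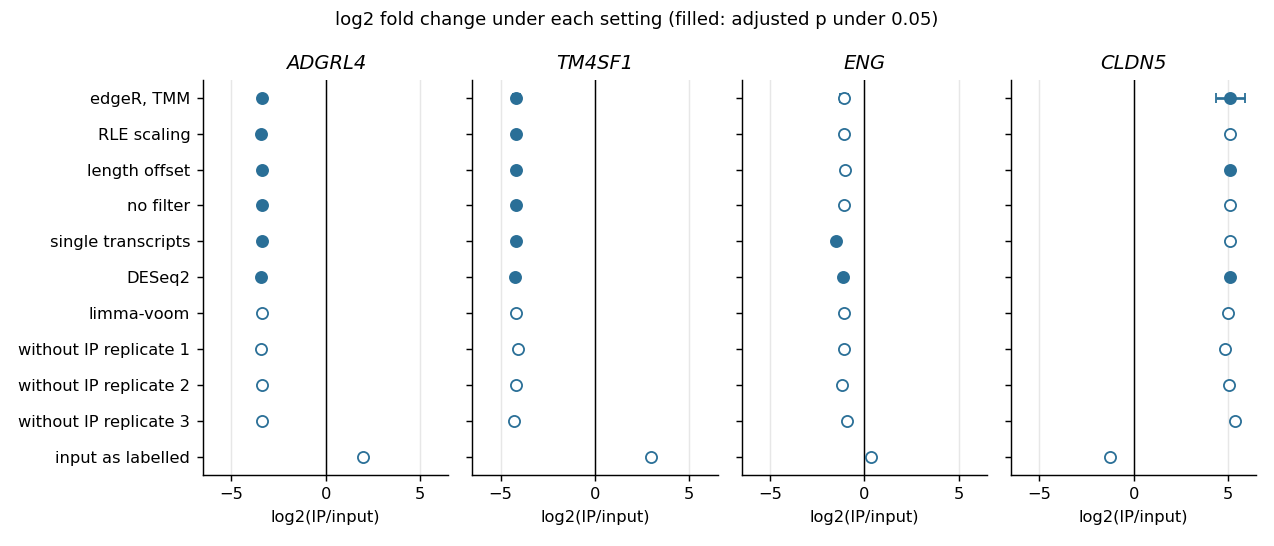
IP over input (log2 fold change) by gene and setting, filled where the adjusted p was under 0.05, with the standard error drawn for the edgeR fit with TMM scaling. Directions held except with the input as labelled, where all 4 turned.

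The genes tied to a symbol allowed a partial view of vessel biology around the 4. Of the 59 genes with values on the lists that follow, the 4 included, 38 passed the edgeR test. Among all tied genes 28.1% were called lower and 28.7% higher, so this count does not set the lists apart. Of the 38 genes, 0 passed with limma-voom or with any 1 IP left out. With the input as labelled, 57 of the 59 changed direction and 0 passed. Counting the library taken as input here as an IP can turn a direction by itself. The genes had also been tied by fold changes with that library as input, so this count does not test the labels. Of 34 genes of endothelial identity, 6 could be tied. Besides the 4, MMRN1, a secreted protein of platelets and endothelium, fell with 11.1, 14.1 and 12.5 TPM in the IPs, against 43.6 TPM in the input (log2 fold change -1.61, edgeR adjusted p = 0.0378). ADGRF5, an adhesion receptor of lung and other endothelium, had 0.306, 0.652 and 0.220 TPM in the IPs, against 4.74 TPM in the input (log2 fold change -4.06, edgeR adjusted p = 0.0811). None of these 6 genes was at 0 reads in any library. In all, 1 of the 6 rose, 3 fell and 2 did not pass, against 28.7% called higher and 28.1% called lower among all tied genes. The median log2 fold change of the 6 was -2.50, against 0.10 over all genes and transcripts and -0.47 over all tied genes. Since 4 of the 6 are the genes followed here, these values restate them and are not separate evidence. Of the 2 others, 1 fell and 0 rose. The other 28, PECAM1, CDH5 and KDR among them, were not analysed here, so an endothelial population in the culture could be neither shown nor denied from its defining markers.

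Other cell types carry some of these genes too, and the values of their markers are given here. Of 15 genes of fibroblasts, meninges and mesenchyme, 5 could be tied, and 3 of them fell while 0 rose, against 28.1% called lower and 28.7% called higher among all tied genes. COL1A2, a chain of type I collagen, had 1275, 1181 and 1003 TPM in the IPs, against 10370 TPM in the input, and its partner COL1A1 also fell (log2 fold changes -2.31 and -1.46). POSTN, a matrix protein, fell (-1.80), and FOXF2 (-2.38), a transcription factor of mesenchyme and pericytes, did not pass. The summed level of the 5 genes was 1300 to 1579 TPM in the IPs, against 11480 TPM in the input. Of 13 mural cell genes, 4 could be tied. CSPG4, a pericyte proteoglycan, fell (log2 fold change -3.13), TAGLN, a smooth muscle actin-binding protein, rose (1.07), and PDGFRB (-1.25) and NOTCH3 (-0.93) did not pass. Summed, the 4 mural genes had 883 to 949 TPM in the IPs, against 685 TPM in the input. TAGLN carried most of that sum, and without it, a choice made after its values were seen, the other 3 had 36.2 to 54.9 TPM in the IPs, against 167 TPM in the input. GATA2 (-1.81, edgeR adjusted p = 0.0624), of 10 blood lineage genes, and AQP1 (-2.60, adjusted p = 0.0764), of 10 epithelial and choroid plexus genes, were the only ones tied in their lists. The part of these cells in the values of ADGRL4, TM4SF1 and ENG was not tested. In such bulk libraries, fewer cells of a type and less RNA per cell cannot be told apart.

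Of 14 genes of the ATOH1 lineage, 9 could be tied, and 8 rose while 0 fell, against 28.7% called higher among all tied genes, with a median log2 fold change of 5.11. They were summed at 1408 to 1872 TPM in the IPs, against 216 TPM in the input. ATOH1 rose by 7.49 on the log2 scale, OLIG3 by 6.82, NHLH1 by 6.31 and HES6 by 5.87, all transcription factors of neural progenitors and new neurons.

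Genes of the pathways in which the 4 take part are given by role. Among angiogenic ligands and receptors, 8 of 21 could be tied, of which 3 rose and 4 fell, with a median of -1.51, against 28.7% called higher and 28.1% called lower among all tied genes. VEGFB, a ligand of VEGF receptor 1, rose with 45.7, 40.6 and 36.7 TPM in the IPs, against 21.2 TPM in the input. CXCL12, a chemokine, and CXCR4, its receptor, rose by 2.70 and 3.09 on the log2 scale. APLN, the ligand apelin (-1.73), SEMA3E, a repulsive vessel guidance ligand (-2.06), and NRP2, a co-receptor for VEGF and semaphorins (-1.62), fell. NRP1, the related co-receptor, had -1.73 and an edgeR adjusted p of 0.0584.

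Of 26 genes of the endoglin and TGF-beta receptor pathway, 7 could be tied, and 1 fell while 0 rose, against 28.1% called lower among all tied genes. That gene was TGFBI, a matrix protein induced by TGF-beta, with 64.1, 76.2 and 72.2 TPM in the IPs, against 354 TPM in the input (log2 fold change -2.81, edgeR adjusted p = 0.0186). The ligand TGFB2 (-0.97), the receptor TGFBR2 (-1.64) and the ligand-binding matrix protein LTBP2 (-1.85) did not pass. ID2, a target of BMP signalling, had 0.91 and an edgeR adjusted p of 0.0519. The median of the 7 genes was -0.97.

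Of 29 other claudin and tight junction genes, 3 could be tied. CLDN11, the claudin of myelin and of several epithelia, rose with 87.1, 66.7 and 71.0 TPM in the IPs, against 31.0 TPM in the input (log2 fold change 1.61, edgeR adjusted p = 0.0392). CLDN6, a claudin of embryonic epithelia and pluripotent cells, had 25.5, 13.8 and 18.7 TPM in the IPs, against 5.30 TPM in the input, with an edgeR adjusted p of 0.0976. JAM3, a junctional adhesion molecule, had a log2 fold change of -0.88 and an edgeR adjusted p of 0.102. The 3 claudins with values, CLDN5 among them, lay higher in every IP, while JAM3 lay lower. Every listed gene had all 3 IPs on 1 side of the input, so this does not set the claudins apart. Of these claudins CLDN5 and CLDN11 passed the test, against 28.7% called higher among all tied genes.

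Among the other adhesion receptors, 4 of 21 could be tied. ADGRL2, a latrophilin and relative of ADGRL4, fell with 34.4, 38.2 and 30.4 TPM in the IPs, against 90.0 TPM in the input (log2 fold change -1.36, edgeR adjusted p = 0.0331). CELSR1, a planar cell polarity receptor, rose by 1.78 on the log2 scale from edgeR. ADGRG7 (-1.60, edgeR adjusted p = 0.0568) and ADGRF5, given above, did not pass.

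Of 19 genes of the TM4SF1 family and of integrins, with which such 4-span membrane proteins associate, 7 could be tied, all of them integrin subunits, and 6 fell while 0 rose, against 28.1% called lower among all tied genes, which the study's own test had chosen. ITGA8, a subunit known from kidney development, had 3.91, 2.40 and 0.997 TPM in the IPs, against 67.3 TPM in the input (log2 fold change -4.48, edgeR adjusted p = 0.0473). ITGA1, a collagen receptor subunit, had 7.94, 7.17 and 6.52 TPM in the IPs, against 70.0 TPM in the input. ITGA5, a fibronectin receptor subunit, and ITGA4, a subunit of receptors for fibronectin and VCAM1, fell (log2 fold changes -1.84 and -1.80). The median of the 7 was -1.80.

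Of 11 blood-brain barrier genes, 5 could be tied, of which 3 fell and 1 rose, against 28.1% called lower and 28.7% called higher among all tied genes. SLC2A1, the glucose transporter of barrier endothelium and of many other cells, fell with 9.52, 8.69 and 6.79 TPM in the IPs, against 72.0 TPM in the input. LEF1, a transcription factor of WNT signalling, and TFRC, the transferrin receptor, fell by 2.11 and 1.61 on the log2 scale. LSR, a protein of tricellular junctions, rose with 32.3, 29.8 and 25.5 TPM in the IPs, against 4.87 TPM in the input. SLC16A1, a lactate transporter, had -0.86 and an edgeR adjusted p of 0.0570.

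**Figure D4:**
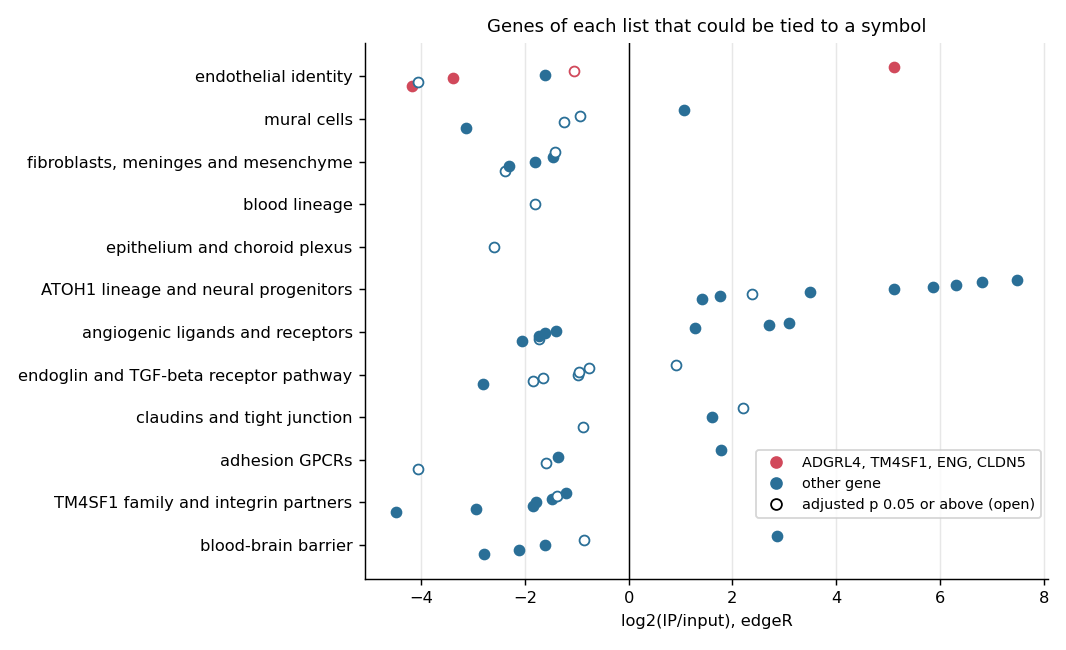
IP over input (log2 fold change from edgeR) of the genes that could be tied to a symbol, by list, with ADGRL4, TM4SF1, ENG and CLDN5 in red and open points where the adjusted p was 0.05 or above. The 7 integrin subunits and the 5 mesenchymal genes lie left of 0, and the 9 genes of the ATOH1 lineage lie right of it.

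The tied genes with the most alike profile over the 4 libraries were named for each of the 4, as a description with no test. The measure was the Euclidean distance between log2 CPM after centring each gene on its mean. ADGRL4 lay nearest to EGFLAM (0.235), a matrix protein, LPL (0.247), the lipoprotein lipase, and THBS2 (0.267), a matrix protein. TM4SF1 lay nearest to CDKN2B (0.120), a cell cycle inhibitor, COL9A1 (0.286), a cartilage collagen chain, and MAMDC2 (0.468). ENG lay nearest to BTBD3 (0.0459), TRIL (0.102) and SEC23IP (0.109). CLDN5 lay nearest to WNT4 (0.478), a WNT ligand, HSD11B2 (0.537), an enzyme that inactivates cortisol, and SHD (0.562). Between the 4 genes themselves the distance was 0.762 for ADGRL4 and TM4SF1, 2.03 for ADGRL4 and ENG, 2.74 for TM4SF1 and ENG, and 5.15 to 7.88 for CLDN5 against the other 3.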

How the data were processed

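TRAP-seq libraries (3 IPs, 1 input) were made with SMART-Seq v4 and Nextera XT and read as single reads. The authors quantified reads with Salmon 0.8.2 against transcripts of the UCSC hg19 gene models. Deposited values are estimated counts and TPM of 69548 transcripts per library. The authors' gene values came from tximport and DESeq2 1.20.0.

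The deposited files do not pair transcripts with symbols. Windows of up to 20 neighbouring transcripts were tied to 1998 gene rows of the study's table by summed mean count (within 3%). Every window also had to match the table's fold change (within 1e-05) and standard error, with the library taken as input. The join tied 1708 genes, 468 on 1 transcript, and left out 57 with several windows and 5 that shared a transcript. With the table's fold changes shifted by 0.01, 40 genes still matched. The fold changes thus chose the windows, so directions of tied genes are not independent of the study's. None of the table's values is printed. The 4 genes matched the mean count within 0.0882%.

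Tied genes were summed, other transcripts kept apart, and estimated counts rounded. They were tested by quasi-likelihood in edgeR 4.0.16 (R 4.3.3) after TMM scaling and filterByExpr (minimum count 10), at a Benjamini-Hochberg adjusted p of 0.05. This departs from tests on all genes, since most transcripts could not be tied. The standard error is the log2 fold change over the square root of F. Alternatives were RLE scaling, DESeq2 1.42.0, limma-voom (limma 3.58.1), no filter, a length offset, single transcripts, leaving out each IP, and the labels' assignment. Functions were tested on simulated data with a spread near that of the tied genes (common coefficient of variation 0.145). The spread over all genes and transcripts was 0.945, so the simulation was less noisy than the fit. Intervals are exact 95% Poisson intervals. Profile distances used log2(CPM + 0.1). Gene positions are GENCODE on GRCh37.

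The 4 genes and the gene lists were chosen with earlier results of these data known. The named genes are the 4, ATOH1, up to 8 tied genes per list (4 in each direction by fold change), the 3 most alike profiles, and transcripts with at least 5% of a gene's TPM.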

Additional observations from a re-analysis of the deposited data

How the results depend on the processing

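edgeR with TMM called 1674 genes and transcripts. DESeq2 called 9721, and limma-voom called 0 (3778 higher and 6373 lower without adjustment, p under 0.05). The labels' assignment of the input gave 0 in edgeR (1032 and 229 unadjusted). Leaving out any 1 IP gave 0 calls in edgeR, with 3556 to 4258 higher and 3111 to 3661 lower unadjusted. With the labels' assignment the log2 fold changes turned to 1.99 (ADGRL4), 2.96 (TM4SF1), 0.34 (ENG) and -1.28 (CLDN5). With limma-voom, ADGRL4 (-3.38), TM4SF1 (-4.17) and CLDN5 (5.01) lost their call. CLDN5 also lost it with RLE scaling (5.07, adjusted p = 0.0505), no filter (5.10, 0.0519) and single transcripts (5.12, 0.0558). ENG passed with DESeq2 (-1.11) and, as its longer transcript, with single transcripts (-1.50). Leaving out 1 IP kept each direction, with ranges of -3.41 to -3.37 for ADGRL4, -4.27 to -4.07 for TM4SF1, -1.17 to -0.94 for ENG and 4.84 to 5.38 for CLDN5, none past the threshold. The causes of these differences between tools were not tested. RLE scaling, DESeq2, the length offset, limma-voom and leaving out 1 IP changed the direction of 0 of 59 listed genes. No paired analysis was possible because there is 1 input library. The input of CLDN5 rests on 25 reads, which limits its ratio.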
